A study of Mus musculus with 4 samples.

Results

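The semaphorin, Slit and netrin guidance genes and their receptors make up 49 of the 25239 gene symbols counted in sorted cells of the mouse hindlimb bud. They were taken by symbol alone: the semaphorins of classes 3 to 7 (20 genes), the plexins (9), the neuropilins (2), Slit1 to Slit3, Robo1 to Robo3, the secreted netrins (4), the netrin-G genes (2), the Unc5 receptors (4), Dcc and Neo1. All embryos were of the FVB strain at embryonic day 11.5, with a wild-type genotype apart from a transgene at the H11 locus, in which the human form of the limb enhancer ZRS, carrying 404G>A, and an hsp68 promoter drive mCherry. Anterior hindlimb cells positive for mCherry were compared with central hindlimb cells negative for it, with 2 libraries of each. Both populations carry the transgene. Every library is either anterior and positive or central and negative, so position in the limb bud and reporter state cannot be told apart. The labels do not say how many embryos went into a library or whether the replicates came from separate litters. The p-values therefore set each difference only against the spread between these libraries. With 2 residual degrees of freedom, the variance estimate of each gene also borrows from the other tested genes.

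Guidance cues steer axons, vessels and migrating cells as they enter the limb bud. Semaphorins act through plexins, and the secreted class 3 semaphorins mostly need a neuropilin as co-receptor. Slits bind Robo receptors, and netrins bind DCC and neogenin, which mediate attraction, or Unc5 receptors, which mediate repulsion.

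Library totals ranged from 30080925 to 33257383 counts. A count of 3 corresponded to 0.0902 to 0.0997 counts per 1 M of the library total, before scaling. Levels are given as CPM (counts per 1 M, scaled by edgeR's TMM factors). Of the counts from 1 to 10, 72.8% to 75.6% per library were even. Whether each fragment added a count for each of its mates was not tested, and a fit on halved counts called as many guidance genes as the fit below. The limb mesenchyme gene Prrx1 and the hindlimb gene Pitx1 had 19828 to 23901 and 13207 to 14874 counts per library, and neither was called between the populations. The other 3 limb mesenchyme markers were called: Prrx2 and Twist1 rose in anterior cells and Pdgfra fell (log2 fold changes 1.91, 0.83 and -1.17).

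More guidance genes fell than rose in anterior cells, and the few that rose included abundant receptors. Of the 49 genes, 46 passed the filter on low counts, and the quasi-likelihood test of edgeR, with Benjamini-Hochberg adjustment and a threshold of 0.05, called 20 of them. Among all 14610 genes tested, 22.9% were called. In these bulk samples, fewer cells of a type and less RNA per cell cannot be told apart. The guidance genes called comprised 4 higher in anterior cells (10.7% of all genes) and 16 lower (12.3%). With a difference of at least 2-fold, 3 were higher (2.34% of all genes) and 10 were lower (6.78%). Values of the populations did not overlap for 36 of the 46 genes, against 63.5% of all genes. The median log2 fold change was -0.30, against -0.01 over all genes tested, and the median absolute change was 0.65 against 0.22. The filter was passed through 1 population only by Robo3, Unc5a, Unc5d and Sema3e, none of which was called.

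**Figure D1:**
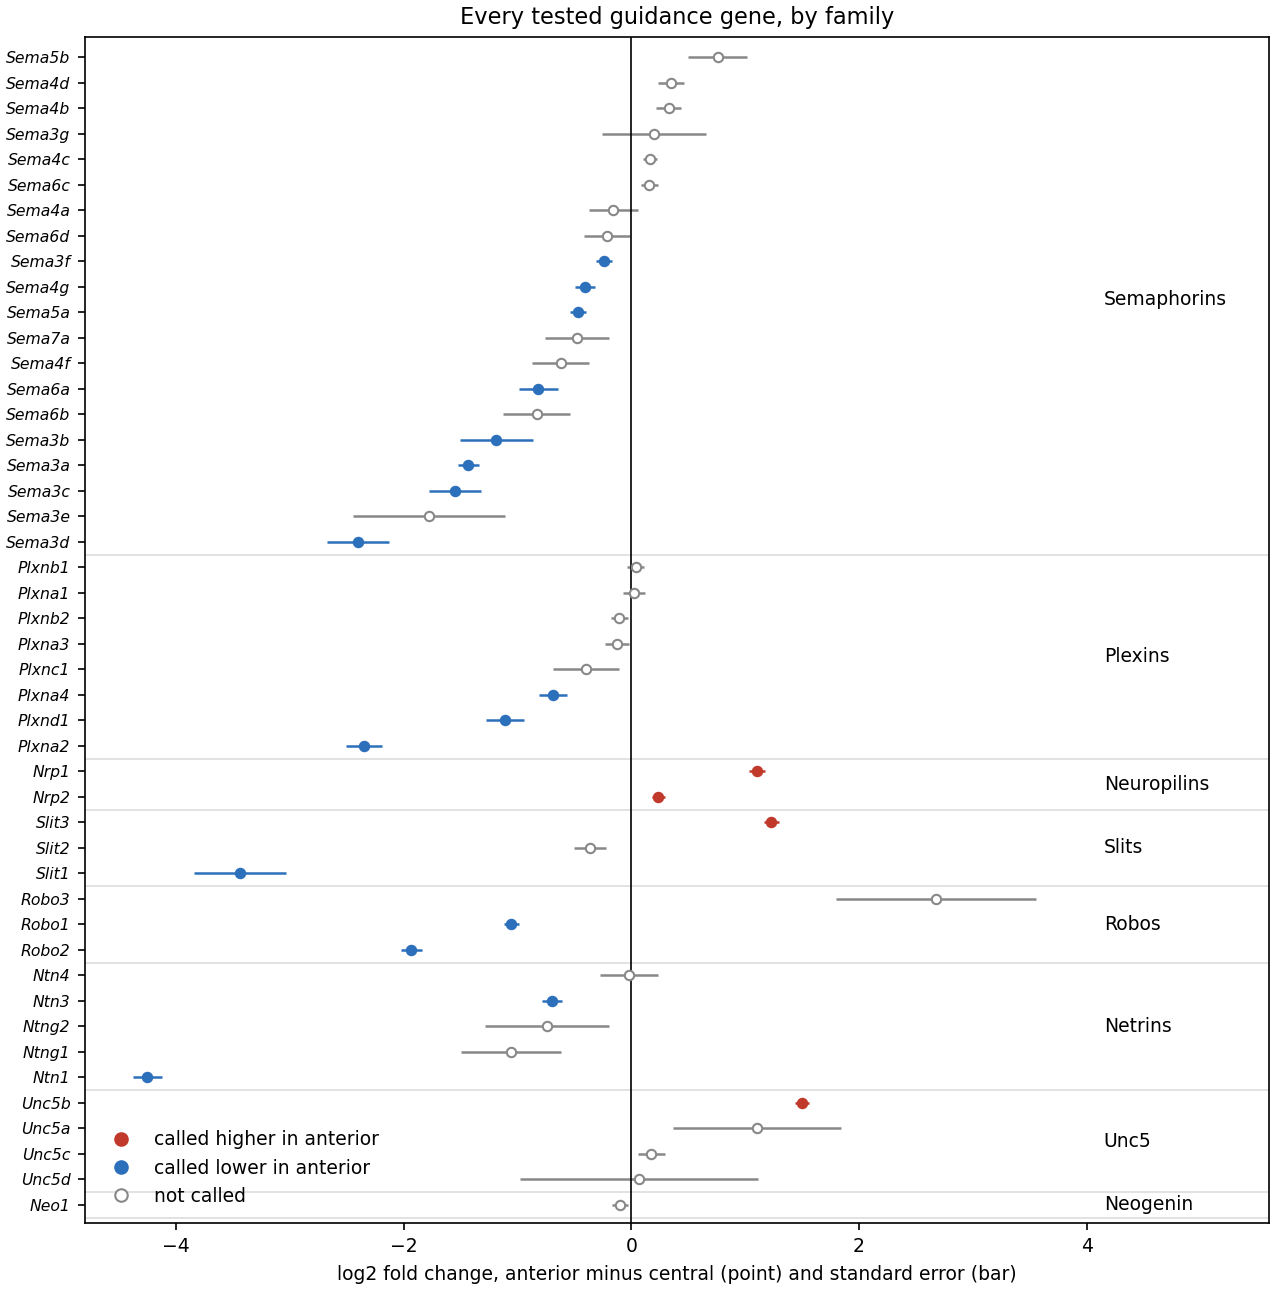
Log2 fold change, anterior minus central, of each of the 46 tested guidance genes by family (points) with its standard error (bars), with filled points for called genes. Most called genes lie left of 0, down to Ntn1 at -4.25, while Unc5b, Slit3, Nrp1 and Nrp2 lie to its right.

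Class 3 semaphorins, the secreted semaphorins, showed the most falls among the ligands. Of the 7 genes, 5 fell in anterior cells (12.3% of all genes), none rose (10.7% of all genes), and 2 were not called. Sema3d measured 4.35 and 2.59 CPM in anterior cells against 21.7 and 15.2 CPM in central cells. Both anterior values lay well under both central ones, and the log2 fold change was -2.40 ± 0.27 (SE; adjusted p-value by edgeR 0.00043). Sema3a, which encodes the classical repellent of sensory and motor axons, measured 25.9 and 23.1 CPM against 66.9 and 65.5 CPM. Its replicates lay close together and its fold change was -1.43 ± 0.09 on the log2 scale (adjusted p-value 1.63e-05). Sema3c measured 7.23 and 5.04 CPM against 20.9 and 15.1 CPM, a log2 fold change of -1.55 ± 0.23 (adjusted p-value 0.00177). Sema3b measured 5.16 and 2.59 CPM against 9.90 and 7.82 CPM, with the anterior replicates a factor of about 2 apart. Its call (log2 fold change -1.19 ± 0.32, adjusted p-value 0.0291) was lost without anterior replicate 2, where the log2 fold change was -0.77 and the edgeR adjusted p-value 0.0948. Sema3f, whose product acts mainly through neuropilin-2, was the most abundant of the class and differed least among those called, at 138 and 142 CPM against 158 and 172 CPM (log2 fold change -0.24 ± 0.07, adjusted p-value 0.0365). That call was lost without anterior replicate 1 (edgeR adjusted p-value 0.219), without anterior replicate 2 (0.175) and without central replicate 2 (0.0777). Sema3e, whose product binds plexin D1 without a neuropilin, had only 14 and 4 counts in anterior cells and 26 and 36 in central cells and was not called (adjusted p-value 0.0914). Sema3g had 30 to 50 counts in every library, with overlapping populations.

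Some of the class 3 genes lie on the same chromosome, which their symbols do not give. In GENCODE M21 on GRCm38, Sema3d, Sema3a, Sema3e and Sema3c lie on chromosome 5 within chr5:12383385-17730268, a span of 5.35 Mb. Their log2 fold changes, in that order, were -2.40, -1.43, -1.78 (not called) and -1.55. Other tested genes within the span numbered 3. Of these, Hgf, which encodes the ligand of the Met receptor, fell from 30.8 to 0.84 CPM, whereas Pclo and Cacna2d1 were not called, with log2 differences of -0.21 and 0.04. Sema3b (chr9:107597674-107609229) and Sema3f (chr9:107681500-107710475) both lie on chromosome 9. Sema3g, which was not called (log2 difference 0.20), lies apart from the others at chr14:31217860-31230352.

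Membrane-bound semaphorins differed less than the class 3 genes. Of the 6 class 4 genes only Sema4g fell, at 45.5 and 44.3 CPM against 62.0 and 57.2 CPM (log2 fold change -0.41; adjusted p-value by edgeR 0.00942), and without anterior replicate 2 it was not called (adjusted p-value 0.0600). Sema4c, whose product binds plexin B2, measured 153 and 156 CPM in anterior cells and 137 and 140 CPM in central cells; the difference was not called (adjusted p-value 0.101). Sema4d, the ligand of plexin B1, measured 25.9 and 26.3 CPM against 19.1 and 21.9 CPM. Its adjusted p-value was 0.0593, and it was called without central replicate 2 (0.0298) and without a filter (0.0493, with alternatives that keep all libraries spanning 0.0493 to 0.103). Sema4b, Sema4f and Sema4a were not called, at log2 differences of 0.33, -0.62 and -0.16. In class 5, Sema5a fell from 131 ± 4.46 to 94.5 ± 4.30 CPM (SD, n = 2; log2 fold change -0.47; adjusted p-value by edgeR 0.00197). Sema5b measured 15.3 and 8.73 CPM in anterior cells and 7.47 and 6.73 CPM in central cells; the difference was not called (adjusted p-value 0.0688). Of 9 alternatives that keep all libraries, 3 called Sema5b: no filter (edgeR adjusted p-value 0.0168), replicate number as a block, and the DESeq2 Wald test. It was also called without anterior replicate 2 and without central replicate 1. With 1 library left out, its log2 difference ranged from 0.30 to 1.11. Among class 6 genes, whose products bind plexins of the A class, Sema6a measured 72.6 and 47.4 CPM against 115 and 96.1 CPM (log2 fold change -0.82 ± 0.17, adjusted p-value 0.0109), but it was not called by the DESeq2 Wald test (adjusted p-value 0.0551, with alternatives that keep all libraries spanning 3.4e-05 to 0.0551). Sema6c, Sema6b and Sema6d were not called, at log2 differences of 0.16, -0.83 and -0.22, although Sema6c was called without central replicate 2 (edgeR adjusted p-value 0.0255) and Sema4f likewise (0.0371). Sema7a, which encodes a lipid-anchored semaphorin, measured 2.64 and 3.07 CPM against 3.90 and 4.05 CPM, a difference that was not called (adjusted p-value 0.263).

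The Slit genes went in different directions. Slit3 (chr11:35121224-35708507) rose in anterior cells, with 193 and 200 CPM against 83.8 and 83.5 CPM. The replicates of each population were nearly equal, and the log2 fold change was 1.23 ± 0.07 (SE; adjusted p-value by edgeR 6.25e-06). Slit1 (chr19:41600257-41743665) was counted 13 and 19 times in anterior cells and 139 and 218 times in central cells, a log2 fold change of -3.44 ± 0.40 (adjusted p-value 0.000498). Slit2 measured 37.5 and 28.9 CPM against 46.4 and 39.1 CPM, and its adjusted p-value of 0.0938 passed the threshold without a filter (0.0362, with alternatives that keep all libraries spanning 0.0198 to 0.0972), without anterior replicate 1 (0.0154) and without central replicate 2 (0.0120).

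Ntn1, which encodes the attractant and repellent netrin-1, had the largest fold difference among the 46 tested genes. It lies at chr11:68209364-68400823 and measured 4.53 and 3.48 CPM in anterior against 77.3 and 76.2 CPM in central libraries, 19.1-fold lower in anterior cells (log2 fold change -4.25 ± 0.13 SE; adjusted p-value by edgeR 6.72e-07). Ntn3 also fell, at 53.8 and 48.3 CPM against 79.3 and 86.0 CPM (log2 fold change -0.69 ± 0.09, adjusted p-value 0.000789). Ntn4, a netrin also found in basement membranes, had overlapping values between 4.08 and 5.04 CPM (adjusted p-value 0.967), and Ntn5 was listed at 0 in every library. The netrin-G genes Ntng1 and Ntng2, whose products are held at the membrane by a lipid anchor, had 13 to 79 counts per library and were not called (adjusted p-values 0.125 and 0.375).

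**Figure D2:**
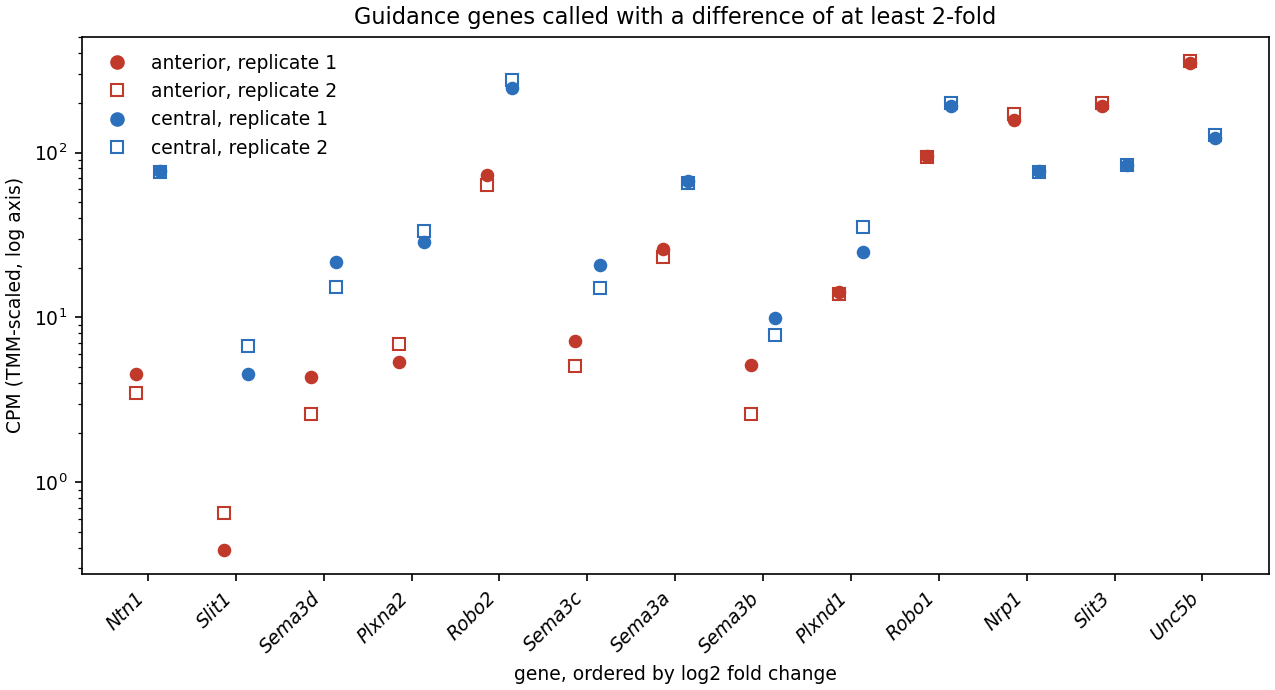
CPM (log axis) in each library of the 13 guidance genes called with a difference of at least 2-fold, anterior in red and central in blue, with circles for replicate 1 and squares for replicate 2. Anterior and central values are separate for every gene shown, by the widest margin for Ntn1 (3.48 to 4.53 against 76.2 to 77.3 CPM).

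Plexins, the signalling receptors of semaphorins, held 3 genes that fell among 8 tested, and no plexin rose. Over all genes tested, 12.3% were called lower and 10.7% higher in anterior cells. Plxna2 (chr1:194618218-194816869) measured 5.34 and 6.89 CPM in anterior cells against 28.8 and 33.3 CPM in central cells. It was 5.09-fold lower (log2 fold change -2.35 ± 0.16 SE; adjusted p-value by edgeR 2.38e-05). Plxnd1 (chr6:115954811-115995005), which encodes a plexin known from vessel patterning, measured 14.2 and 13.8 CPM against 25.1 and 35.5 CPM, and the central replicates were further apart than the anterior ones (log2 fold change -1.11 ± 0.17, adjusted p-value 0.0019). Plxna4 measured 21.3 and 19.3 CPM against 35.6 and 29.9 CPM (log2 fold change -0.69 ± 0.12, adjusted p-value 0.00448). The abundant plexins were close to even. Plxnb2 measured 431 and 398 CPM against 423 and 469 CPM (log2 difference -0.11 ± 0.07), Plxnb1 302 and 292 CPM against 270 and 308 CPM (0.04 ± 0.07), and Plxna1 255 and 275 CPM against 234 and 289 CPM (0.02 ± 0.10). For each of these genes the populations overlapped, and the adjusted p-values were 0.358, 0.758 and 0.907. The sign for Plxna1 turned with library size alone and with upper-quartile factors. Plxna3 and Plxnc1 were not called (log2 differences -0.13 and -0.40), although Plxna3 was called lower without central replicate 1 (log2 fold change -0.28; adjusted p-value by edgeR 0.0274). Plxnb3 had at most 6 counts in any library.

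Both neuropilins rose, in contrast to the class 3 semaphorins. Nrp1 (chr8:128358604-128503363), the receptor of Sema3a and also of VEGF, measured 158 and 170 CPM in anterior cells and 77.0 and 76.3 CPM in central cells, 2.14-fold higher (log2 fold change 1.10 ± 0.07 SE; adjusted p-value by edgeR 1.5e-05). Nrp2, the most abundant of all guidance genes in CPM, measured 562 and 549 CPM against 471 and 471 CPM (log2 fold change 0.24 ± 0.06, adjusted p-value 0.0214). The Nrp2 call was lost without anterior replicate 1 (edgeR adjusted p-value 0.167) and without anterior replicate 2 (0.117).

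The main Slit receptors fell. Robo2 (chr16:73891839-74411825) measured 73.2 and 63.7 CPM in anterior cells against 247 and 276 CPM in central cells, 3.82-fold lower (log2 fold change -1.93 ± 0.09 SE; adjusted p-value by edgeR 3.4e-06). Robo1 (chr16:72308306-73046095), its neighbour on chromosome 16, measured 95.2 and 93.5 CPM against 192 and 200 CPM (log2 fold change -1.05 ± 0.06, adjusted p-value 1.24e-05). Robo3, a divergent family member of commissural neurons, was near the limit of detection, with 17 and 10 counts in anterior cells and 2 in each central library. The ratio of summed counts per total was 6.66 (95% exact interval 2.32 to 26.2, which covers counting error only, and 1.59 to 62.6 on halved counts), and the edgeR adjusted p-value of 0.0587 missed the threshold.

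Unc5b (chr10:60762593-60831581) had the largest rise among the called guidance genes. It measured 347 and 358 CPM in anterior cells against 122 and 128 CPM in central cells, 2.83-fold higher (log2 fold change 1.5 ± 0.06 SE; adjusted p-value by edgeR 2.13e-06). Unc5c measured 96.0 and 77.8 CPM against 84.6 and 69.3 CPM, with overlapping populations (log2 difference 0.18 ± 0.12, adjusted p-value 0.352), and passed the threshold only without central replicate 1 (adjusted p-value 0.0391). Unc5a had 4 to 23 counts per library, and Unc5d ranged from 2 to 44 with replicates of the same population far apart; neither was called. Neo1, encoding neogenin, a receptor of netrins and of repulsive guidance molecules, measured 224 and 237 CPM against 238 and 256 CPM and was not called (log2 difference -0.10 ± 0.07, adjusted p-value 0.332). Dcc had 4 and 0 counts in anterior cells and 66 and 10 in central cells. It did not pass the filter on low counts, and its summed counts per total were 19.2-fold higher in central cells (95% exact interval 7.22 to 72.5, counting error only). On halved counts the interval was 4.97 to 165. Without the filter, edgeR called Dcc lower in anterior cells (adjusted p-value 0.00395), although the central replicates differed by a factor of more than 6.

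Start regions of the receptors that differed by at least 2-fold are shown to set the genes that rose beside those that fell. Each is the stretch of 250 bases before a RefSeq transcript start on GRCm38.p6, in the C57BL/6J reference rather than the FVB strain, and holds no exon annotated in GENCODE M21, in which a transcript of the gene starts directly after each window printed. Capitals mark CG dinucleotides, the sites of CpG methylation. Of the 49 genes, 40 had a start region in the RefSeq table, with 53 windows in all, and Plxna2, whose window overlaps an annotated exon, is left out. Unc5b (chr10:60831582-60831831, minus strand) and Nrp1 (chr8:128358823-128359072, plus strand, at a start 469 bases inside the gene) were higher in anterior cells. Robo1 (chr16:72662899-72663148, plus strand, at a start that lies 354843 bases inside the gene), Robo2 (chr16:74411826-74412075, minus strand, the window next to the GENCODE start among 3 for this gene) and Plxnd1 (chr6:115995006-115995255, minus strand) were lower.
Unc5b: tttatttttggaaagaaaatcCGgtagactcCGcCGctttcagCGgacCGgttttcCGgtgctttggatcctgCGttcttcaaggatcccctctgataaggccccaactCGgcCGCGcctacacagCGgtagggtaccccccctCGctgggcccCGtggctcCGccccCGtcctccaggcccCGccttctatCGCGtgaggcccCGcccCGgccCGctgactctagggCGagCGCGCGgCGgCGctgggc
Nrp1: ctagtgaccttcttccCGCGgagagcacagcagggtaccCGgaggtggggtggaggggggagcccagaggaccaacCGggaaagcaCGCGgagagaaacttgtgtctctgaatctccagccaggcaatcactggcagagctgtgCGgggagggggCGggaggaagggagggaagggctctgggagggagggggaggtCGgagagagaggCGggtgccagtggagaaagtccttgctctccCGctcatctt
Robo1: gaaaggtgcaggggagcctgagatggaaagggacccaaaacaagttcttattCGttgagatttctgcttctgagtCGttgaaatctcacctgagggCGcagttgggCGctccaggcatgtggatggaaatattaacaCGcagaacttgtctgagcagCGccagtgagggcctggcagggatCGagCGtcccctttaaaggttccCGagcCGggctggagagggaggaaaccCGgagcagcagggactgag
Robo2: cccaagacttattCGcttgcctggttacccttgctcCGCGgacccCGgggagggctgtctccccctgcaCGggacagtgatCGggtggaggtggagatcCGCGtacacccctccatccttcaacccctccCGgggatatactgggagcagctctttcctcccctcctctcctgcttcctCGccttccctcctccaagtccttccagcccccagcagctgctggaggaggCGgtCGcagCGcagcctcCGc
Plxnd1: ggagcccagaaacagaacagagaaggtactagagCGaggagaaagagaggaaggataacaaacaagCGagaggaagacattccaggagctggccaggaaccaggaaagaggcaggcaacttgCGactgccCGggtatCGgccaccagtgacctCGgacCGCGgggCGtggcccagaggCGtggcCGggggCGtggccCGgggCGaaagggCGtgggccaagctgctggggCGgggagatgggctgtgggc
The windows hold 27 CG dinucleotides for Unc5b, 11 for Nrp1, 11 for Robo1, 14 for Robo2 and 16 for Plxnd1. The median was 6 over all 32851 windows of the table and 13 over the 53 windows of guidance genes, and 92.1% of all windows hold at least 1. The counts of the genes that rose and of those that fell overlapped. Motifs of limb factors were also searched on both strands. The hedgehog-effector motif GACCACCCA was in none of the 53 windows, against 0.225% of all windows. The ETS motif CCGGAAG was in 1 of the 53 (1.89%), that of Plxnb1, against 6.91% of all windows. The TALE homeodomain motif TGACAG was in 9 (17.0%), several of them starts of Sema4d, against 15.9% of all windows. The E-box CAGCTG was in 8 (15.1%), against 13.0% of all windows. Among the windows printed, only that of Robo2 holds one of these motifs, the E-box.

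Levels were compared between genes as CPM per kilobase of GENCODE M21 exons, which depends on that annotation because the one used for counting is not given in the sources used here. Plxnb2 led over all libraries, at 51.5 to 60.8 CPM per kb, followed by Nrp2 at 39.7 to 47.5 and Unc5b at 19.5 to 57.2. In anterior cells Unc5b ranked 1st of the 49, at 55.5 and 57.2 CPM per kb, next to Plxnb2 at 55.8 and 51.5, with which it overlapped. In central cells Unc5b measured 19.5 and 20.4 CPM per kb, which overlapped with Sema6c at 18.8 and 20.9. Next in the overall order were Sema4c (29.8 to 34.0 CPM per kb), Plxnb1 (28.2 to 32.1) and Sema3f (26.6 to 33.1), whose ranges overlap one another.

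Summed per family, levels followed a few abundant genes. The Slit genes summed to 33.3 and 34.2 CPM per kb in anterior cells against 16.4 and 16.4 in central cells, while the Robo genes summed to 10.1 and 9.46 against 26.1 and 28.4. The Slit sum was mostly Slit3, and Slit1, lower in anterior cells like Robo1 and Robo2, added 0.0658 and 0.109 against 0.762 and 1.14. The secreted netrins summed to 12.3 and 11.4 CPM per kb against 29.0 and 30.3, while the Unc5 genes summed to 60.8 and 61.5 against 24.2 and 24.0, mostly from Unc5b. The other netrin receptor genes did not shift that way: Neo1 measured 25.7 and 27.1 CPM per kb against 27.3 and 29.4, and Dcc had 4 and 0 counts against 66 and 10. Class 3 semaphorins summed to 31.4 and 30.8 against 43.1 and 43.8, and the neuropilins to 63.6 and 63.8 against 47.7 and 47.5. Plexins summed to 126 to 130 in anterior and 126 to 146 in central cells, with overlap. No test of these sums was run.

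The make-up of the families differed as well. Ntn1 took 5.84% and 4.88% of the summed netrin level per kb in anterior cells against 42.5% and 40.1% in central cells, and Ntn3 took most of the remainder. Slit3 was 95.4% and 96.4% of the Slit level against 84.2% and 83.7%. The exon lengths used were 25.4 kb for Slit2 and 6.07 kb for Slit3, so Slit2 weighs less here than in CPM. Robo2 was 42.5% and 39.6% of the Robo level against 55.6% and 57.2%, so that Robo1 held the larger share in anterior cells and Robo2 in central ones. Nrp1 was 25.4% and 27.3% of the neuropilin level against 16.5% and 16.4%. Sema3f was the main class 3 gene throughout, at 84.8% and 88.3% against 70.6% and 75.6%. None of these shares overlapped between the populations.

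**Figure D3:**
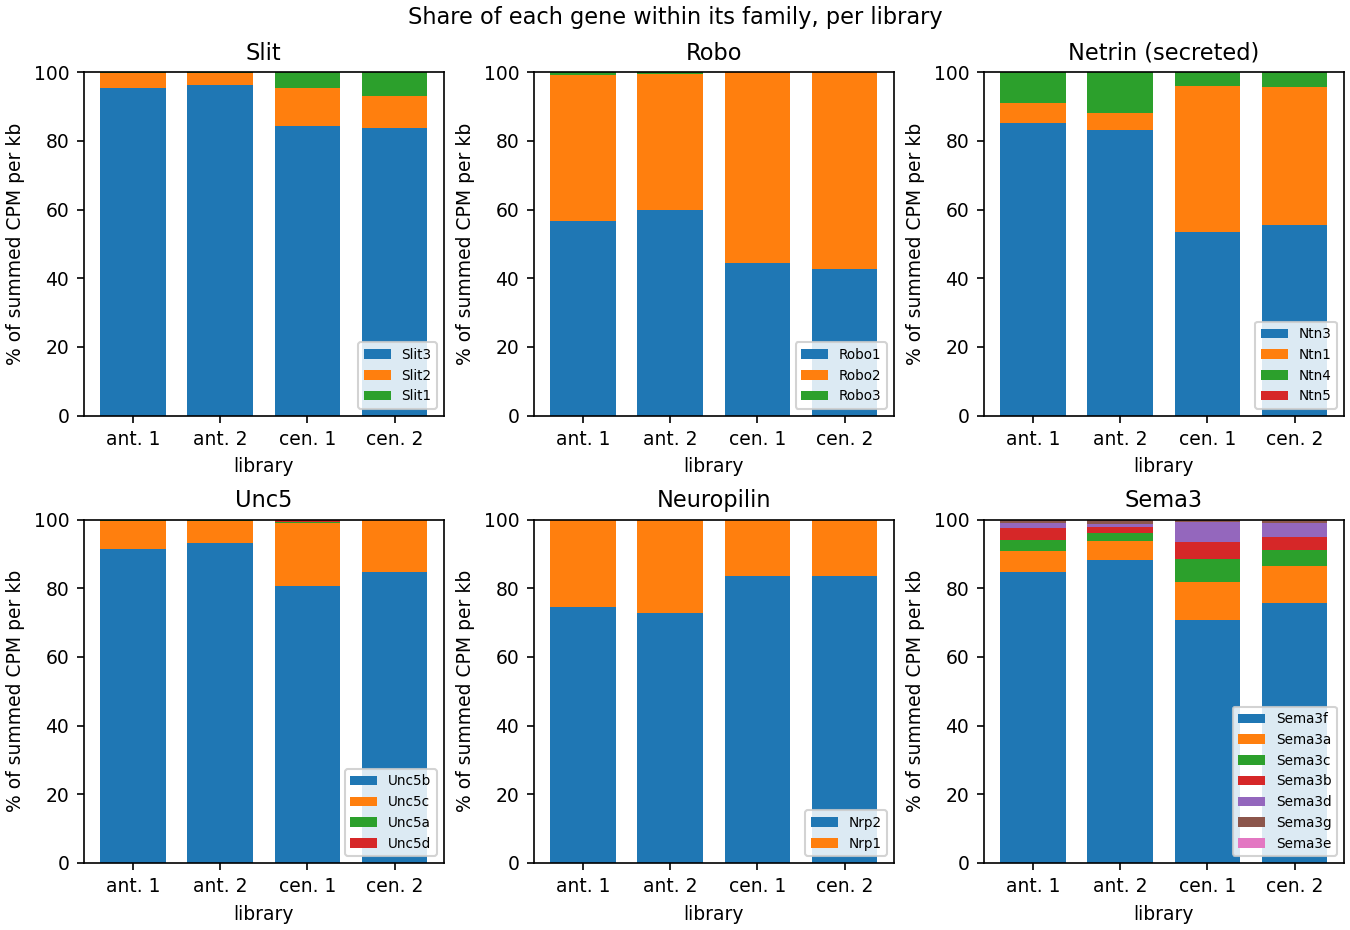
Share of each gene in the summed CPM per kb of its family (percent, stacked bars) in the 2 anterior and 2 central libraries, for 6 families. Ntn1 fills 4.88% to 5.84% of the netrin bar in anterior and 40.1% to 42.5% in central libraries, and the larger Robo gene changes from Robo1 to Robo2.

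Partners of these pathways were described from 5 lists of 70 genes, of which 64 were tested, 12 rose and 16 fell (43.8% called, against 22.9% of all genes). The lists were chosen with earlier results of these data known, so this share only describes them and is no test. The median log2 fold change over the lists was -0.01. Among other co-receptors, 4 rose and 4 fell of 10 tested. L1cam, the adhesion molecule that joins Nrp1 in the response to Sema3a, rose from 0.69 to 7.43 CPM (log2 fold change 3.43; adjusted p-value by edgeR 0.000539). Met, a receptor tyrosine kinase that can partner B plexins, fell from 64.4 to 2.63 CPM, and Kdr and Flt1, the VEGF receptors of endothelium, and Chl1 fell by 3.05, 3.03 and 2.72 on the log2 scale. Flt1 and Chl1 passed the filter on low counts through central cells only. Among Slit and Robo partners, 2 rose and 3 fell of 8 tested. Flrt1 rose by 1.35 on the log2 scale, and the endothelial Robo4 and the Robo3 ligand gene Nell2 had log2 fold changes of -1.88 and -1.53. Among partners of netrin, DCC and neogenin, 1 rose and 2 fell of 5 tested. The ligands of neogenin Rgma and Rgmb both fell, Rgma from 81.4 to 29.5 CPM and Rgmb from 70.6 to 25.6 CPM (log2 fold change -1.46 for each). Draxin, which encodes a netrin and DCC binding protein, rose by 0.78. Of the 5 VEGF ligands 2 rose and 2 fell, with the largest change in Vegfd, from 2.46 to 17.7 CPM (log2 fold change 2.84).

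The cytoplasmic transducers of guidance signals differed little. Of 36 tested, 3 rose and 5 fell, which is 22.2% and near the 22.9% of all genes, and their median absolute log2 fold change was 0.16, against 0.54 for the 18 tested guidance receptors and 0.66 for the 28 tested ligands. Only Crmp1, which encodes a collapsin response mediator protein of the Sema3a pathway, and Srgap3, a GTPase activator that binds Robo, changed by at least 2-fold, with log2 fold changes of 1.60 and -1.06. Rac1, Cdc42, Abl1, Enah, Trio and Dock1 were all between -0.26 and 0.13 on that scale, and of these only Trio was called (log2 fold change -0.26; adjusted p-value by edgeR 0.0241).

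**Figure D4:**
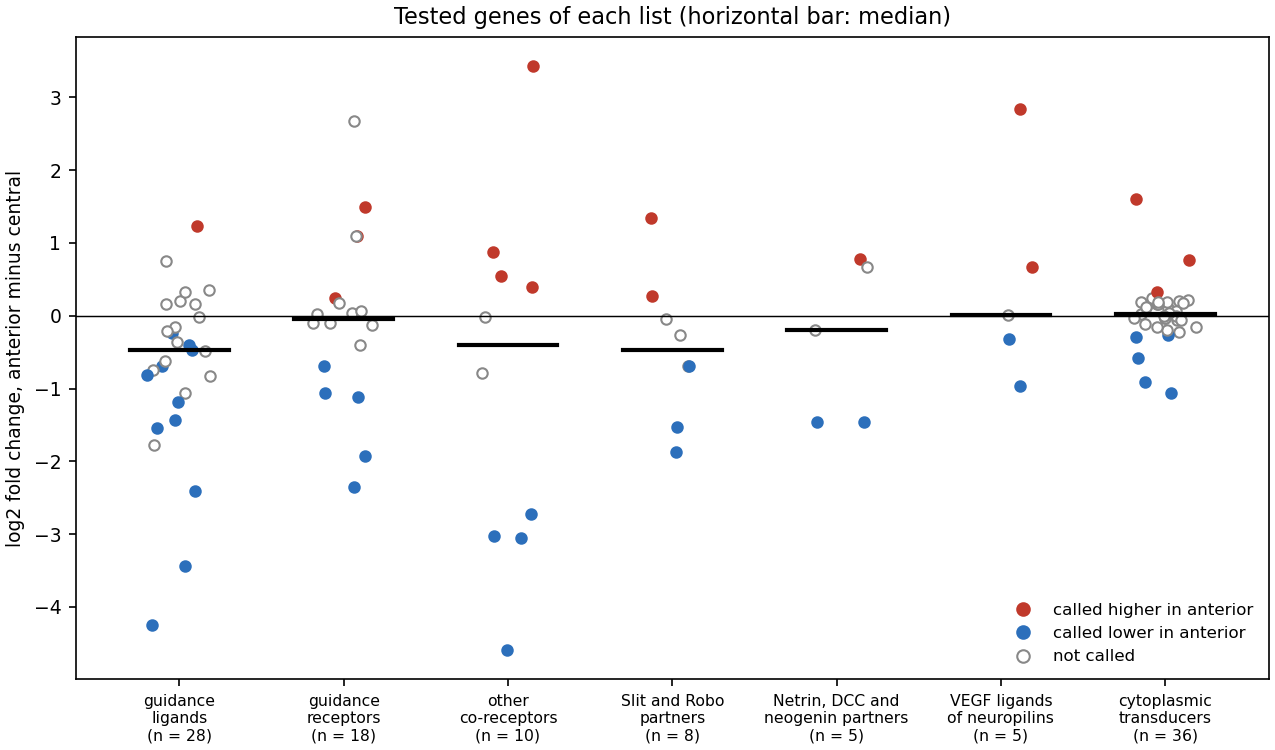
Log2 fold change, anterior minus central, of the tested guidance ligands (28), guidance receptors (18) and genes of 5 partner lists, with filled points for called genes and a bar at each median. Called ligands and receptors spread from -4.25 (Ntn1) to 1.5 (Unc5b), and the open receptor point above them is Robo3, with 2 counts in each central library, while all but a few of the 36 cytoplasmic transducers lie near 0.

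Markers of other cell types moved with the populations, and their part in the results above was not tested. The 6 myogenic markers had a summed level of 0.51 to 0.75 CPM in anterior and 71.7 to 84.6 CPM in central cells. All 6 were called lower, each having passed the filter through central cells only, and Myog and Pax7 were at 0 in both anterior libraries. Of the endothelial markers 4 of 9 fell and none rose (17.3 to 21.9 against 41.1 to 43.6 CPM), beside the fall of Plxnd1, Robo4, Kdr and Flt1 and the rise of Nrp1 and Unc5b, which vessels also express. Of the surface ectoderm markers 7 of 8 fell (9.83 to 9.99 against 46.2 to 137 CPM), 5 of which passed the filter through central cells only. The same holds for Cldn5 among the endothelial falls and for Sox10, and 3 of the erythroid genes passed through anterior cells only. Of the Schwann precursor markers 2 fell of 3 tested (5.66 to 6.42 against 20.0 to 25.6 CPM), with Sox10 and Foxd3 at 0 in anterior cells, whereas no neuron marker of the 4 tested was called (15.5 to 19.3 against 10.8 to 15.4 CPM). The cartilage progenitor genes Sox9 and Col2a1 and the tendon progenitor gene Scx fell. Summed levels were 209 to 293 against 985 to 1236 CPM for the cartilage list. For the tendon list they were 10.1 to 10.6 against 102 to 104 CPM, nearly all from Scx. Acan was not called, with overlapping counts of 11 and 16 in anterior and 106 and 6 in central cells. Matn1 (0 in both anterior libraries, 58 and 2 counts in the central ones) and Tnmd (0 to 2 counts) were not tested. All 3 proximal limb genes fell (4.36 to 18.6 against 260 to 289 CPM), and the erythroid list rose in 6 of 6 (3287 to 8382 against 5.0 to 7.91 CPM). Of the macrophage markers 2 of 5 rose (12.4 to 16.5 against 7.07 to 7.21 CPM).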

How the data were processed

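Per the submitters' processing notes, STAR 2.7.9a, HTSeq, DESeq2 (3.16) and the build mm10 were used, with no roles stated. The authors deposited whole-number read counts per gene symbol, not normalized. The annotation and strand setting used for counting are not given in the sources used here, so counts where exons overlap another gene are uncertain; among the genes that differed by at least 2-fold only Nrp1 shares exon bases with another annotated gene (0.818%). Each count column was matched to a sample by the domain and number in its title.

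Counts were analysed in R 4.3.3 with edgeR 4.0.16: filterByExpr defaults, TMM scaling, quasi-likelihood F test, Benjamini-Hochberg adjustment over 14610 genes, threshold 0.05, two-sided. Standard errors are the absolute log2 fold change over the root of F. Levels are TMM-scaled CPM. The code was run on counts simulated from the means and dispersions of this same fit, with far fewer changed genes than were called here. That run checks the code only and does not bear on whether the calls are right. Alternatives used DESeq2 1.42.0 and limma 3.58.1. Exon lengths and positions came from GENCODE M21, start regions from RefSeq (GRCm38.p6). Guidance genes called with at least a 2-fold change and a mean of 1 CPM are given by library. Members were taken by a fixed rule on gene symbols. That rule, the lists and the tests were chosen with earlier results of these data known. Same-numbered libraries are not said to be paired.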

Additional observations from a re-analysis of the deposited data

How the results depend on the processing

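The count of called guidance genes, 20 of 46, was 20 with DESeq2 size factors, library size alone, upper-quartile factors, a mean count of at least 50, limma-voom, the DESeq2 Wald test and halved counts, and 24 without a filter. It was 12 (3 higher, 9 lower) when tested against a 1.5-fold change and 16 at a threshold of 0.01. Over all genes the 3351 calls became 1035 against a 1.5-fold change and 1690 at 0.01. With 1 library left out, where the lone library is assumed to vary like the pair, 17 to 24 guidance genes and 2009 to 3697 genes in all were called, fewest without anterior replicate 2. No called guidance gene changed direction under any of these fits. With replicate number as a block, 22 guidance genes and 3586 genes were called, and all 20 guidance genes called without it were among the 22. The block added Slit2 (edgeR adjusted p-value 0.0198) and Sema5b (0.0231, with alternatives that keep all libraries spanning 0.0168 to 0.0953). Differences between replicates 1 and 2 had a Pearson correlation of 0.064 between the populations, taken over genes, and no label pairs the libraries, so they share only a number. Of the 20, the DESeq2 Wald test left out Sema6a (adjusted p-value 0.0551) and added Sema5b (0.0434). Signs turned in genes that were not called: Plxna1 became -0.011 with library size alone and -0.017 with upper-quartile factors, and with 1 library left out the log2 values ranged from -0.12 to 0.18 for Plxna1, -0.17 to 0.13 for Ntn4, -0.28 to 0.0414 for Plxna3, -0.0501 to 0.14 for Plxnb1, -0.0902 to 0.57 for Sema3g and -1.11 to 3.57 for Unc5d. The cause was not tested. Genes under about 3 counts per library (0.0902 to 0.0997 per 1 M of the library total) in a population have widely bounded fold changes, as given for Robo3 and Dcc. Where a population has no counts, the fold change has no upper bound.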
